A study of Homo sapiens with 9 samples.

Results

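Some transcripts carried several RNA editing sites in their introns with 1 of 2 RNA-binding protein fusions and were missing from the list of the other. These genes were chosen from the editing tables as protein-coding genes with 2 or more intronic sites, with 0 sites in the 5′ UTR, coding sequence, 3′ UTR and stop codon, and with no entry in the other fusion's table. The rule found 149 of the 1348 protein-coding genes listed for either fusion, 73 with GPATCH8-ADAR and 76 with ADAR-SUGP1. The counts of intronic and exonic sites chose the genes, so these counts are given as a description, with no test. A group of intronic sites in a gene is called a cluster below, although the tables hold no positions and the sites of a gene may lie far apart.

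In TRIBE-seq, an RNA-binding protein is joined to the deaminase part of a fly ADAR enzyme made more active by mutation, which converts adenosines near the places where the protein touches RNA into inosines that are read as guanosines. Introns are present in the pre-mRNA and are removed by the spliceosome, and the sites counted here lay in introns of the listed transcripts. GPATCH8 and SUGP1 are G-patch proteins, a family known for activating RNA helicases, and both are linked to branchpoint selection by SF3B1, the U2 snRNP protein that is often mutated in myeloid neoplasms. The libraries were made from total RNA depleted of ribosomal RNA, which keeps unspliced transcripts.

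The cells were 293T, a human embryonic kidney line, labelled as wild type for SF3B1 in every group. Plasmids for GPATCH8-ADAR, for ADAR-SUGP1 or for an MCP and ADAR fusion that targets no RNA (control-ADAR) were transfected, and living GFP-positive cells were sorted 24 h later. Run 1 held 2 libraries of GPATCH8-ADAR and 2 of its control, and run 2 held 2 libraries of ADAR-SUGP1 (written SUGP1-ADAR in the sample labels), 2 of its control and 1 of untransfected cells. Both fusions were expressed from plasmids, so their amounts need not match those of the cell's own proteins. Each table gives 1 count of sites per transcript, for sites found in both libraries of a fusion after endogenous editing and editing by the control fusion had been subtracted, per the series' design text. No value per library exists in these tables, so no spread between libraries can be given, and fusion and run cannot be told apart. The tables also give no read coverage, so a gene missing from a list may have been read too shallowly there, and no expression level against which the cell type could be checked.

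Of the 498 protein-coding genes listed with GPATCH8-ADAR, 120 had 2 or more intronic sites, 115 of these had no exonic or stop-codon site, or 23.1% of the listed genes, and 73 of the 115 were absent from the ADAR-SUGP1 table. The members were thus 14.7% of the listed genes (95% exact binomial interval 11.7 to 18.1), and this is the background against which gene groups are read below. Of the 995 genes listed with ADAR-SUGP1, 136 had 2 or more intronic sites, 110 had no exonic or stop-codon site, or 11.1%, and 76 were absent from the GPATCH8-ADAR table. The members were 7.64% of these genes (6.06 to 9.47). The requirement of no exonic site removed 5 genes from the GPATCH8-ADAR list and 26 from the ADAR-SUGP1 list. All intervals here cover counting error over genes only, not the spread between libraries.

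The GPATCH8-ADAR members held 192 of the 565 intronic sites in listed genes (34%), and the ADAR-SUGP1 members 180 of 834 (21.6%). With GPATCH8-ADAR a member had 2.63 ± 1.11 sites (SD over genes, n = 73), from 2 to 8. With ADAR-SUGP1 it had 2.37 ± 0.629 sites (SD over genes, n = 76), from 2 to 5. The median was 2 in both sets. Most members sat at the lower limit of the rule, 47 of 73 and 52 of 76 having exactly 2 sites. A count of 3 was reached by 15 GPATCH8-ADAR members and 22 ADAR-SUGP1 members, and a count of 4 or more by 11 and 2.

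**Figure D1:**
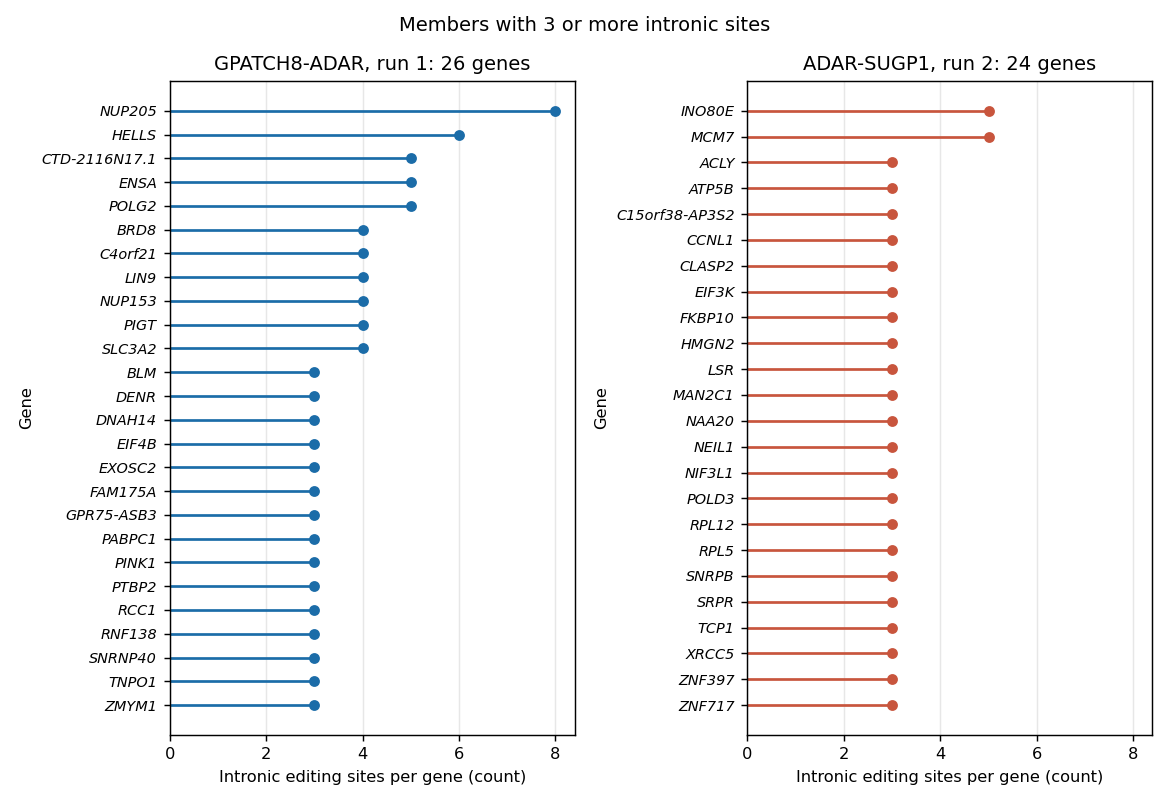
Intronic editing sites per gene (x axis, count) for every member with 3 or more sites, 26 for GPATCH8-ADAR (left) and 24 for ADAR-SUGP1 (right). NUP205 reaches 8 sites, while INO80E and MCM7 are the ADAR-SUGP1 members above 3, with 5 each.

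The largest cluster with GPATCH8-ADAR lay in NUP205, a scaffold of the inner ring of the nuclear pore, with 8 intronic sites in ENST00000285968.6. HELLS, a chromatin remodeller needed for DNA methylation, had 6, of which 5 were counted in ENST00000419900.1 and 1 in ENST00000394036.1. There were 5 sites each in ENSA, an inhibitor of the phosphatase PP2A in mitosis (ENST00000369016.4), in POLG2, the accessory subunit of the mitochondrial DNA polymerase (ENST00000539111.2), and in CTD-2116N17.1 (ENST00000561349.1), which the gene table used here did not name. Members with 4 sites were NUP153 of the nuclear basket, BRD8 of the TIP60 acetyltransferase complex, LIN9 of the DREAM cell cycle complex, PIGT of the GPI transamidase, C4orf21 (current symbol ZGRF1, a helicase) and SLC3A2, the heavy chain of amino acid transporters. SLC3A2 is also on the list of genes with splicing changes in SF3B1-mutant cells. It was the only member from that list, which had 3 listed genes with GPATCH8-ADAR (33.3% members, against 14.7% of all listed genes). ADAR-SUGP1 listed 10 genes of the list with 0 members, against 7.64% of all its listed genes. These are too few genes to compare.

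Nuclear pore and nuclear transport genes were the most numerous group among the GPATCH8-ADAR members. Of 12 such genes listed with GPATCH8-ADAR, 6 were members (50.0%, against 14.7% of all listed genes). Besides NUP205 and NUP153 these were RCC1, the exchange factor that loads Ran with GTP, with 3 sites, the import receptor TNPO1 with 3, NUP133 of the outer ring with 2, and CSE1L, which returns importin alpha to the cytoplasm, with 2. The other 6, AAAS, IPO7, NUP107, NUP85, NUP98 and the export receptor XPO5, had 1 intronic site each. ADAR-SUGP1 listed 10 genes of this group, with 0 members, where 7.64% of all its listed genes were members and 13.7% had 2 or more intronic sites. With 10 genes, a count of 0 is near those shares. There, NUP155, NUP188, NUP210, NUP43, NUP85, RANBP2, XPO1, XPO5 and XPO6 had 1 intronic site each, and RANGAP1 had 1 exonic site. Pore genes were therefore listed with both fusions, and NUP85 and XPO5 were shared. The difference between the fusions was not tested, because the site counts chose the members.

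Splicing genes were present in both sets. Here and below, the share of a group with 6 or fewer listed genes is too uncertain to compare with the background. U2 snRNP and branchpoint factors gave 3 members of 6 listed genes with GPATCH8-ADAR (50.0%, against 14.7%). They were SF3A2, a subunit of the SF3A complex, the helicase DDX46, which remodels the U2 snRNP, and U2SURP, each with 2 intronic sites. RBM39 and SF3B3 also had 2 sites each with GPATCH8-ADAR but were listed with ADAR-SUGP1 too, and PHF5A had 1. ADAR-SUGP1 listed 4 genes of this group and gave 0 members, against 7.64% of all its listed genes, which is too few genes to compare. RBM5 was close, with 4 intronic sites and no entry in the other table, but had 2 stop-codon sites. Among SR proteins and hnRNPs, GPATCH8-ADAR gave 2 members of 6 listed (33.3%, against 14.7%), PTBP2, the neuronal polypyrimidine tract protein, with 3 sites, and HNRNPC with 2. ADAR-SUGP1 gave 3 of 19 (15.8%, against 7.64%), RALY, KHSRP and SRSF11, with 2 sites each. Other spliceosome proteins gave 1 member of 12 with GPATCH8-ADAR (8.33%, against 14.7%), the U5 protein SNRNP40 with 3 sites. With ADAR-SUGP1 they gave 3 of 13 (23.1%, against 7.64%), the Sm core protein SNRPB with 3 sites, and LUC7L and the peptidyl-prolyl isomerase PPWD1 with 2 each.

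The largest ADAR-SUGP1 clusters lay in INO80E, a subunit of the INO80 chromatin remodeller, and in MCM7, a subunit of the replicative helicase, with 5 intronic sites each (ENST00000563197.1 and ENST00000489841.1). DNA replication and repair genes were the group with most members there, 8 of 27 listed genes (29.6%, against 7.64% of all listed genes). After MCM7 came the DNA glycosylase NEIL1, the polymerase delta subunit POLD3 and XRCC5, the Ku80 subunit of end joining, with 3 sites each. The nuclease EXO1, FANCI of the Fanconi anemia pathway, the origin recognition subunit ORC6 and the topoisomerase TOP3A had 2 each. GPATCH8-ADAR gave 3 members of 11 listed genes (27.3%, against 14.7%), the helicase BLM with 3 sites, and PALB2, the partner of BRCA2, and the uracil glycosylase UNG with 2 each. In this group the share of members lay above the background with both fusions, although 3 of 11 genes is a small count. The same held for other lists, such as the translation, mitochondrial and transport genes below, so it is not particular to this group. Of the 8 ADAR-SUGP1 members, EXO1 may hold 1 site, and NEIL1 and FANCI overlap other members and may share their sites. FANCA, POLE2 and RFC3 were listed with both fusions, having 2, 2 and 1 intronic sites with GPATCH8-ADAR. With ADAR-SUGP1 the same genes had 2, 1 and 4. NEIL1 is also a known target of endogenous editing, the only member of that list of genes, and endogenous editing had been subtracted before the table was made.

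Transcripts of the translation machinery formed clusters with each fusion. Translation factors and tRNA synthetases gave 4 members of 14 listed genes with GPATCH8-ADAR (28.6%, against 14.7%) and 4 of 21 with ADAR-SUGP1 (19.0%, against 7.64%). The GPATCH8-ADAR members were EIF4B, a cofactor of the helicase eIF4A, the poly(A)-binding protein PABPC1 and the reinitiation factor DENR, with 3 sites each, and the arginyl-tRNA synthetase RARS with 2. The ADAR-SUGP1 members were EIF3K, a subunit of eIF3, with 3 sites, and the elongation factor EEF2 and the synthetases HARS and NARS with 2 each. With symbols updated to current ones this count fell to 2, since the list does not match the current names of HARS and NARS. Cytosolic ribosomal proteins gave 0 members of 6 with GPATCH8-ADAR. They gave 2 of 24 with ADAR-SUGP1 (8.33%, against 7.64%), RPL5 and RPL12, with 3 sites each. With exonic and stop-codon sites allowed, the count with ADAR-SUGP1 was 6. Many of these genes, like HMGN2 and NACA below, have processed copies elsewhere in the genome. The part of such copies in these counts was not tested.

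Mitochondrial genes gave 4 members of 17 listed with GPATCH8-ADAR (23.5%, against 14.7%) and 5 of 29 with ADAR-SUGP1 (17.2%, against 7.64%). With GPATCH8-ADAR these were POLG2, and with 2 sites each UQCRC1, a core subunit of complex III, ATP5S (current symbol DMAC2L) and the carrier SLC25A27. With ADAR-SUGP1 they were ATP5B, the catalytic beta subunit of ATP synthase, with 3 sites, and POLG, UQCRH, MRPL20 and the import subunit TIMM50 with 2 each. Chaperones gave 2 members of 5 with GPATCH8-ADAR (40%, against 14.7%), which is too few genes to compare. These were CCT3 of the TRiC chaperonin and the prefoldin PFDN5, with 2 sites each. With ADAR-SUGP1, 3 of 11 chaperones were members (27.3%, against 7.64%). They were TCP1, another TRiC subunit, and the collagen chaperone FKBP10 with 3 sites each, and DNAJC11 with 2.

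Chromatin and RNA polymerase II genes were close to the background with GPATCH8-ADAR, with 2 members of 14 (14.3%, against 14.7%), HELLS and BRD8. With ADAR-SUGP1 there were 4 of 27 (14.8%, against 7.64%), INO80E, the nucleosome-binding protein HMGN2 with 3 sites, and the histone deacetylase HDAC1 and the heterochromatin protein CBX3 with 2 each. Zinc finger genes gave 1 member of 22 with GPATCH8-ADAR (4.55%, against 14.7%), ZNF146 with 2 sites, and 4 of 29 with ADAR-SUGP1 (13.8%, against 7.64%), ZNF397 and ZNF717 with 3 and ZNF302 and ZNF317 with 2. RNA decay and processing genes gave EXOSC2 of the RNA exosome with GPATCH8-ADAR, with 3 sites and 1 of 10 listed (10%, against 14.7%). ADAR-SUGP1 gave 3 of 22 (13.6%, against 7.64%), the exosome subunit EXOSC9, the helicase DDX17 and the deadenylase PAN2, with 2 each. Genes with introns that are known to be detained or retained gave 0 of 6 and 3 of 24 (12.5%, against 7.64%), the latter being CCNL1, a cyclin tied to splicing, with 3 sites, LUC7L and SRSF11.

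The other groups are given first for GPATCH8-ADAR, where 14.7% of listed genes were members, and then for ADAR-SUGP1, where 7.64% were. Ubiquitin and proteasome genes gave 1 of 16 (6.25%), the ligase RNF138 with 3 sites, and 0 of 29. Kinases and phosphatases gave 1 of 13 (7.69%), the phosphatase subunit PPP6R3 with 2 sites, and 0 of 26, and cell division genes gave 1 of 15 (6.67%), ENSA, and 0 of 21. Transport genes gave 3 of 10 (30%), SLC3A2, the potassium channel KCNJ14 and SLC25A27, and 2 of 24 (8.33%), SLC26A10 and ABCF2. SLC26A10 is protein-coding in the deposited table but has the current symbol SLC26A10P, a pseudogene name, and ABCF2 belongs to an ABC subfamily without membrane domains. Membrane trafficking genes gave 2 of 8 (25%), AP1S3 and STX12 with 2 sites each, and 1 of 29 (3.45%), EXOC7 with 2, or 4 of 29 with exonic sites allowed. Amino acid, nucleotide and lipid metabolism gave 0 of 8 and 1 of 14 (7.14%), ACLY, the source of cytosolic acetyl-CoA, with 3 sites. A list of hematopoietic markers had 1 listed gene with GPATCH8-ADAR, none with ADAR-SUGP1, and 0 members.

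**Figure D2:**
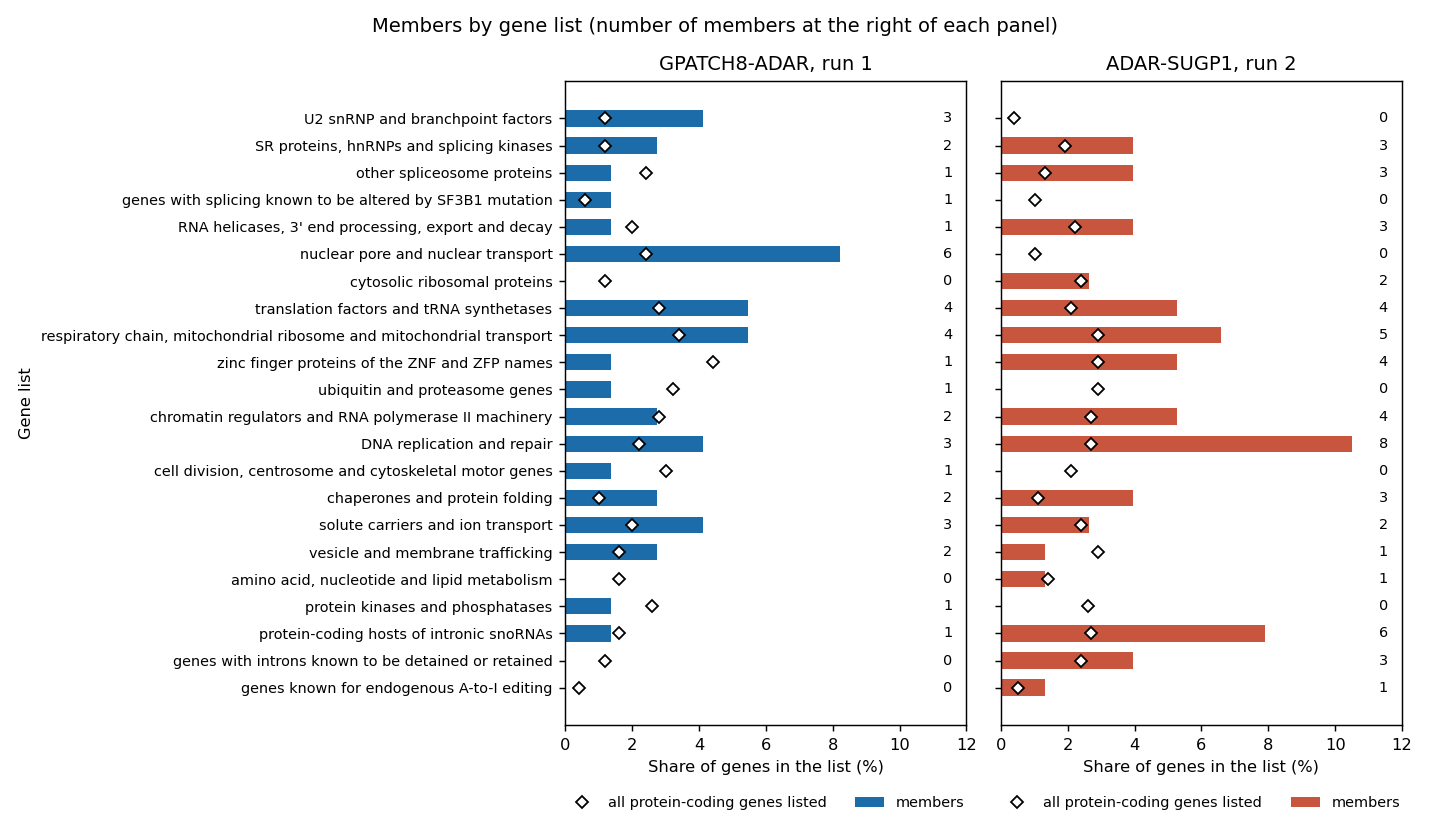
Share of members (bars, %) and of all protein-coding genes listed (diamonds, %) that belong to each gene list, for GPATCH8-ADAR (left) and ADAR-SUGP1 (right), with the number of members at the right of each panel. Nuclear pore and transport genes hold 8.22% of GPATCH8-ADAR members and 0% of ADAR-SUGP1 members, and DNA replication and repair genes hold 4.11% and 10.5%.

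In all, 36 of the 73 GPATCH8-ADAR members and 44 of the 76 ADAR-SUGP1 members fell in at least 1 of these lists. The same share over all listed genes was not counted, so these numbers cannot be read as a concentration in the lists. The other 37 and 32 members belonged to none. With GPATCH8-ADAR those at 3 sites were FAM175A (current symbol ABRAXAS1, of the BRCA1-A complex), the mitochondrial quality kinase PINK1, the axonemal dynein DNAH14, ZMYM1 and the read-through gene GPR75-ASB3. Those at 2 sites included mitochondrial genes outside the list, namely AGK, AK3, ALAS1 (the first enzyme of heme synthesis), DNM1L (the fission GTPase), FASTKD1 and RPUSD4. They also included the ribosome assembly factors GTPBP4 and WDR12, NACA of the nascent chain complex, the diphthamide enzyme DPH1, the polymerase III subunit POLR3E and the Integrator subunit VWA9 (current symbol INTS14). The rest were ALG8, FADS2, FAM193A, GPN2, GPR180, HIATL1 (current symbol SLC71A2), KANSL1L, NAE1, NCR3LG1, RASA1, S100PBP, TBL1XR1, UNK, WAC, WDR26 and ZDHHC8.

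With ADAR-SUGP1, members of no list with 3 sites were CLASP2, which stabilises microtubules, LSR, a lipoprotein receptor, MAN2C1, a cytosolic mannosidase, NAA20, the catalytic subunit of an N-terminal acetyltransferase, NIF3L1, SRPR of the signal recognition particle receptor and the read-through gene C15orf38-AP3S2. Those with 2 sites included genome maintenance genes outside the list, EME2, a partner of the nuclease MUS81, and NSMCE4A of the SMC5/6 complex. RCC2, SASS6 (centriole assembly), SSU72 (a phosphatase of the polymerase II tail), ZZZ3 (a subunit of the ATAC complex), PUS1 (a pseudouridine synthase) and NMT1 (a myristoyltransferase) were further members. Others were AP5Z1, ASB3, C2orf15, CSAD, ELF2, GON4L, HAVCR2, IFT27, INPPL1, LRRC37A2, LRRC39, MLLT4 (current symbol AFDN), NRSN2, PPAN-P2RY11, PXK and SDCCAG3 (current symbol ENTR1). LRRC37A2 and ZNF717 belong to families of near-identical copies, so their counts are uncertain.

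Several protein complexes had 1 subunit in each set, examples picked out after the members were known. Other complexes had their members in 1 set, such as the pore with NUP205, NUP153 and NUP133. Since members are by rule absent from the other table, as are 70.9% and 85.4% of all listed genes, the examples below are a description. The mitochondrial DNA polymerase had its accessory subunit, POLG2, among the GPATCH8-ADAR members (5 sites) and its catalytic subunit POLG among the ADAR-SUGP1 members (2 sites, in a gene that overlaps FANCI). BLM (3 sites) and TOP3A (2), which act together to dissolve recombination intermediates, were divided in the same way. So were EXOSC2 (3) and EXOSC9 (2) of the exosome, CCT3 (2) and TCP1 (3) of TRiC, and UQCRC1 (2) and UQCRH (2) of complex III. The related RNA-binding proteins HNRNPC (2) and RALY (2) were also in opposite sets.

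How often a gene was found with 1 fusion alone varied with its number of intronic sites, among genes without exonic sites. With GPATCH8-ADAR, 171 of 241 genes with 1 intronic site (71.0%, 95% exact binomial interval 64.8 to 76.6) were absent from the other table. The share was 61.0% (49.2 to 72.0) at 2 sites, 78.9% (54.4 to 93.9) at 3 and 57.9% (33.5 to 79.7) at 4 or more, and these intervals overlap. With ADAR-SUGP1 it was 83.8% (80.0 to 87.1) for the 437 genes with 1 site, 68.4% (56.7 to 78.6) for 76 genes with 2 and 78.6% (59.0 to 91.7) for 28 genes with 3. Of the 6 genes with 4 or more, 2 were alone (33.3%, 4.33 to 77.7). Over all listed protein-coding genes, whatever their sites, these shares were 70.9% and 85.4%. Those shares over all genes include genes with exonic sites, which the shares by number of sites leave out. Site counts and absence from the other table were values that the rule used. The shares and intervals are therefore a description, and a dependence on the number of sites was not tested.

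**Figure D3:**
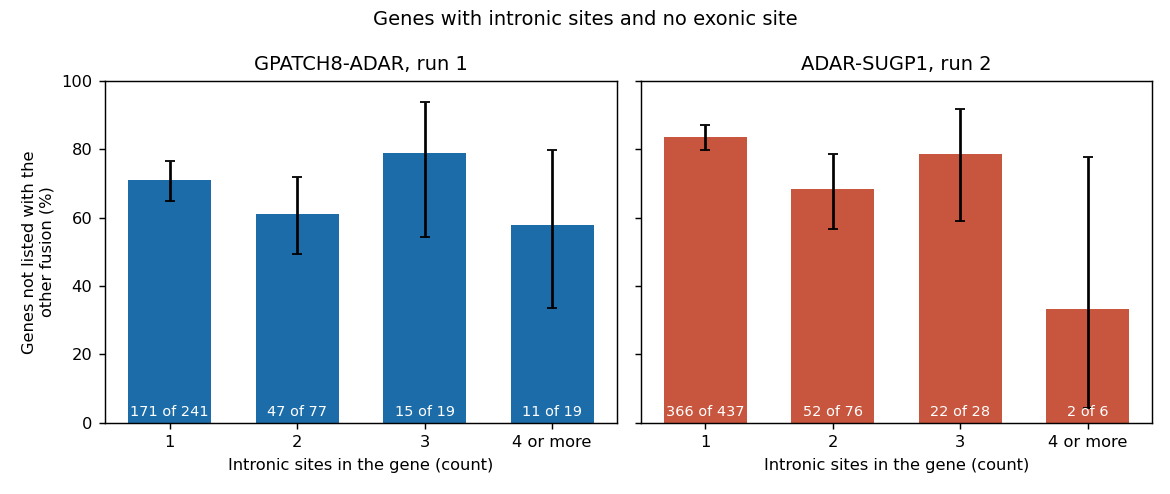
Share of genes absent from the other fusion's table (y axis, %) by number of intronic sites, for genes with no exonic or stop-codon site, with 95% exact binomial intervals and the counts in each bar. With ADAR-SUGP1 the share is 83.8% at 1 site and 33.3% at 4 or more, where 6 genes remain.

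Genes just outside the rule show where the limits fell. With exactly 1 intronic site, no exonic site and no entry for the other fusion there were 171 genes with GPATCH8-ADAR, such as AAAS and AIMP2, and 366 with ADAR-SUGP1, such as AARS. An exonic or stop-codon site kept out 4 genes with GPATCH8-ADAR that were otherwise members, GART, TTF2, SMPD4 and LIN52, and 20 with ADAR-SUGP1, among them RPL31 with 6 intronic sites, CPNE1 with 5, and C7orf43 and RBM5 with 4. At 3 or more intronic sites, 13 genes of the GPATCH8-ADAR table and 14 of the other were listed with both fusions. Of these, 12 and 10 had no exonic or stop-codon site and were left out for that reason alone. CCDC84 had 6 intronic sites with GPATCH8-ADAR and 1 with the other fusion, DNMT1 5 and 1, and EIF3L 6 and 2. In the other direction SPG7 had 7 with ADAR-SUGP1 and 2 with GPATCH8-ADAR, and RFC3 had 4 and 1. Clusters of 2 or more intronic sites without exonic sites were found with both fusions in 17 genes. Their mean was 2.65 sites with each fusion (SD over the 17 genes 1.17 for GPATCH8-ADAR, 1.27 for ADAR-SUGP1).

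The tables hold a promoter column that the rule did not use. No member had a site in the promoter column, in which 3 genes of the GPATCH8-ADAR table and 6 of the ADAR-SUGP1 table had sites. Sites of a member were nearly always counted for a single transcript. Several transcripts were listed for 2 GPATCH8-ADAR members (HELLS and ALG8), or 2.74% against 8.63% of all its listed genes. They were listed for 7 ADAR-SUGP1 members, or 9.21% against 19.6%. These 7 were HMGN2 and FKBP10, each with 2 sites in 1 transcript and 1 in another, and EXO1, EEF2, ELF2, MLLT4 and EME2, each with 1 site in each of 2 transcripts, as in ALG8. Whether a site covered by several transcripts was counted for each of them is not known, so these 5 genes and ALG8 may hold 1 site each.

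The features described from here on were chosen after the values had been seen. Some members overlapped each other in the genome, by the RefSeq gene table (GRCh38.p14), in which 72 and 76 members were found. The read-through gene GPR75-ASB3, with 3 sites with GPATCH8-ADAR (ENST00000263634.3), spans ASB3, with 2 sites with ADAR-SUGP1 (ENST00000406625.2). This locus was therefore counted as 2 members, 1 of each fusion, although both fusions had intronic sites there. RASA1 and S100PBP, GPATCH8-ADAR members with 2 sites each, overlapped CCNH and YARS, which had 1 intronic site each with ADAR-SUGP1. Overlap with a gene of the other table was found for 3 of 72 GPATCH8-ADAR members (4.17%, against 3.70% of its listed genes) and for 1 of 76 ADAR-SUGP1 members (1.32%, against 1.95%). Within the ADAR-SUGP1 set, NEIL1 and MAN2C1 (3 sites each) overlapped, as did FANCI and POLG (2 each). The use of strand is not given in the sources used here, so the sites of such pairs cannot be told apart and may be the same sites.

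Introns of protein-coding genes also hold the genes of small RNAs, which offers another feature that the rule did not use. A miRNA gene lay within the span of 6 of 72 GPATCH8-ADAR members (8.33%, against 5.75% of its listed genes) and of 10 of 76 ADAR-SUGP1 members (13.2%, against 8.5%). A snoRNA gene lay within 5 (6.94%, against 5.75%) and 7 (9.21%, against 6.76%). With 3 or more intronic sites, a miRNA gene lay within 20% of GPATCH8-ADAR members and 17.1% of the genes it listed at that number. For ADAR-SUGP1 these shares were 16.7% and 14.3%. The listed genes include the members. The spans do not show in which intron the sites lay, gene lengths were not compared, and the strand of the snoRNA genes was not known. MCM7, with 5 sites, is the member with most miRNA genes, 3 in all on its own strand. They are MIR106B, MIR93 and MIR25, and their main products are shown because they are the RNAs known to be cut from an MCM7 intron. Mature sequences are from RefSeq (GRCh38.p14), all on the minus strand, with the seed (bases 2 to 8) in capitals.
hsa-miR-106b-5p, chr7:100094043-100094063: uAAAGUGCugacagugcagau
hsa-miR-93-5p, chr7:100093815-100093837: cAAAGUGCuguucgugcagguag
hsa-miR-25-3p, chr7:100093571-100093592: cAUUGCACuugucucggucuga
The first and the second share the seed AAAGUGC, and the third has AUUGCAC. Other members with 3 or more sites and a miRNA gene on their own strand were PIGT (MIR6812), TNPO1 (MIR4804) and GPR75-ASB3 (MIR3682) with GPATCH8-ADAR and C15orf38-AP3S2 (MIR5009 and MIR5094) with ADAR-SUGP1.

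Of the snoRNA hosts, the GPATCH8-ADAR member RCC1 spans SNORA73A and SNORA73B, and UQCRC1 spans SNORA94. BLM, LIN9 and RNF138 span 1 snoRNA gene each that has no symbol beyond a locus number. With ADAR-SUGP1 the hosts were RPL5 (SNORA66 and SNORD21), RPL12 (SNORA65), TCP1 (SNORA20 and SNORA29), ATP5B (SNORD59A and SNORD59B) and SNRPB (SNORD119), with 3 sites each. EEF2 (SNORD37) and PPAN-P2RY11 (SNORD105 and SNORD105B) had 2. Most box C/D (SNORD) RNAs guide methylation and most box H/ACA (SNORA) RNAs guide pseudouridylation of ribosomal RNA, and they are commonly released from introns of their hosts. By a list of known protein-coding hosts, 6 of 27 listed genes were members with ADAR-SUGP1 (22.2%, against 7.64%) and 1 of 8 with GPATCH8-ADAR (12.5%, against 14.7%). A further 17 of the 27 had exactly 1 intronic site. EEF2 is among the 6 members and may hold 1 site. The list held 7.89% of ADAR-SUGP1 members and 2.71% of its listed genes. By the gene table above, the shares with a snoRNA gene were 9.21% and 6.76%, a smaller difference.

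Many snoRNA hosts and translation genes begin their transcripts with a C followed by a run of pyrimidines, the 5′ TOP start through which mTOR controls translation. A start of C followed by at least 4 bases that are each C or T, on the gene's own strand, was looked for in the promoters that RefSeq gave for 68 and 64 members. It was present at a start of 9 GPATCH8-ADAR members (13.2%) and 9 ADAR-SUGP1 members (14.1%). The share was 9.31% and 8.18% among all listed genes and 6.24% among 15843 protein-coding genes with a promoter. The median GC content of the promoters, 250 bases before to 50 after the start, was 63.8% and 64.8% in members, 64.7% and 66.0% in listed genes and 62.3% in all protein-coding genes. Starts of 3 members of each fusion are shown to let them be compared, 15 bases on each side (GRCh38.p14, 5′ to 3′ on the gene's strand), with the pyrimidine run in capitals. EIF4B, NACA and PFDN5 are GPATCH8-ADAR members, and EEF2, EIF3K and RPL12 are ADAR-SUGP1 members.
EIF4B, chr12:53006441-53006470, plus strand: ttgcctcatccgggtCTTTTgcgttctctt
NACA, chr12:56725285-56725314, minus strand: acgctctcgctcggtCTTTCTgccgccatc
PFDN5, chr12:53295527-53295556, plus strand: tcgccgagagacttcCTCTTCgttaagtcg
EEF2, chr19:3985449-3985478, minus strand: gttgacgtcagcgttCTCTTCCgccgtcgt
EIF3K, chr19:38619173-38619202, plus strand: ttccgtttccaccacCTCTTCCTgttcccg
RPL12, chr9:127451392-127451421, minus strand: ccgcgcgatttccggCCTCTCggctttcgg
Such starts occurred in members of both fusions at like shares. The remaining members with one were FAM175A, NUP133, RCC1, RPUSD4, SF3A2 and U2SURP with GPATCH8-ADAR and C2orf15, SDCCAG3, HDAC1, INPPL1, NEIL1 and UQCRH with ADAR-SUGP1. A match of these letters is not evidence that the start is used in 293T cells.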

How the data were processed

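Each of the 2 tables deposited by the authors counts editing sites, not reads, by Ensembl transcript and region, per the file headers. Per the submitters' processing notes, Trimmomatic, STAR and hg19 were used. How sites were called, at which thresholds, with which annotation and whether by strand is not given in the sources used here. The labels give no read number for a single library, and nothing in them says that the replicates were separate cultures. Here 572 blank rows of the GPATCH8-ADAR table were skipped, protein-coding rows (544 and 1216) were kept, and counts were summed per gene symbol with pandas 2.3.3 (Python 3.11.15), which treats a site as counted for 1 transcript. The rule for members was checked on simulated tables. The members and the 23 gene lists, some set by patterns of symbols, were chosen with earlier results of these data known. Members are named with their site counts, and with transcripts for the largest clusters; 1 is not reported here. No test was run, since the site counts chose the members and no value per library exists. Intervals are exact binomial (Clopper-Pearson, scipy 1.17.1) at 95%. RefSeq tables (GRCh38.p14) gave current symbols (14 members by synonym, 1 unmatched), overlapping and contained genes, promoters and miRNAs. No coordinate was moved between builds.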

Additional observations from a re-analysis of the deposited data

Results flagged for a closer look

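Non-coding rows were outside the rule, and clusters above the 3 counts taken as the limit of a count of 0 appeared there in 3 genes found with 1 fusion alone. With GPATCH8-ADAR, RP4-785G19.5, a sense-overlapping transcript, had 5 intronic sites and the pseudogene AC093838.4 had 4. With ADAR-SUGP1, a processed transcript of SPPL2B had 4. The limit covers counting error only and is not a test here. These genes were chosen for having no entry with the other fusion, where their read coverage is unknown. In all, non-coding genes found alone with 2 or more intronic sites numbered 6 for GPATCH8-ADAR, and 10 were found for ADAR-SUGP1. The ADAR-SUGP1 table was longer, with 1340 transcript rows of every type against 612. Of these rows, 1216 and 544 were protein-coding. Shares of the listed non-coding genes were not computed, so the counts of 6 and 10 show no difference between the fusions.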

How the results depend on the processing

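No paired analysis was possible because each table holds 1 count pooled over both libraries, and for the same reason no library could be left out. The number of members stayed within 1.5 times the main count under every planned setting except a higher minimum of sites. With at least 3 intronic sites there were 26 GPATCH8-ADAR and 24 ADAR-SUGP1 members (5.22% and 2.41% of listed genes, means 3.77 and 3.17 sites), and with at least 4 there were 11 and 2 (2.21% and 0.201%, means 4.82 and 5). These settings keep fewer genes by construction. With exonic and stop-codon sites allowed, members were 77 and 96, and the ADAR-SUGP1 share rose to 9.65%. With rows of every type they were 79 and 86, with the largest single transcript 72 and 71, and with genes of 1 listed transcript 71 and 69. Updated symbols, absence from all rows, absence judged by transcript-body sites, and no promoter site left 73 and 76, the same genes. Leaving out members that overlap a gene of the other table, chosen after seeing the data, left 70 and 75. Of the recomputed list counts 447 stayed within 1.5 times and 59 did not. Of these 59, 20 came with a minimum of 3 intronic sites (26 stayed) and 31 with a minimum of 4 (15 stayed). Absence from all rows, absence judged by transcript-body sites, and no promoter site kept the same genes. The list counts under those settings therefore stayed by construction. With at least 3 sites, a snoRNA gene lay in 16% of GPATCH8-ADAR members and 14.6% of its listed genes, and in 20.8% and 14.3% for ADAR-SUGP1; this share of listed genes was added after seeing the data. The depth behind a site is unknown, so a missing entry is no measure of absence.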
